A study of Mus musculus with 12 samples.

Results

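The genes described here encode the nuclear-made subunits of the oxidative phosphorylation machinery, as measured in mouse embryonic stem (ES) cells of a D3 clone. They were chosen by symbol: the Nduf genes of complex I with a number after the letter a, b, c, s or v, Sdha to Sdhd of complex II, the Uqcr genes of complex III, the Cox4 to Cox8 genes followed by a, b or c of complex IV, and the Atp5 genes of complex V. Of 19938 genes with a probe set of their own, 79 met this rule, 35 of them in complex I, 4 in complex II, 8 in complex III, 15 in complex IV and 17 in complex V. Cox4i1, Cox4i2, Cyc1 and Ndufab1 encode subunits too but fall outside the symbol rule and are given separately. Cox7c, Ndufb4, Ndufb4b and Ndufs5-ps were found only on probe sets with several symbols and were not analysed here.

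Total RNA from 12 samples was measured on Affymetrix whole-transcript arrays, with 3 samples in each of 4 groups. The ES group was undifferentiated cells at day 0. The EB group was embryoid bodies, balls of cells that form and begin to differentiate when ES cells are aggregated, at day 4. The DMSO group was such bodies given the solvent dimethyl sulfoxide for 12 h, and the ATRA group was bodies given all-trans retinoic acid at 5 micromolar for 12 h. All 3 groups of bodies came from the same D3 clone as the ES cells and were aggregated in bacteriological dishes without the cytokine LIF. Whether the 12 h of treatment lay within the 4 days or came after is not settled by the labels, so time in culture may differ between treated and untreated bodies. The labels call the 3 samples of a group biological replicates and say nothing further about how far they were separate.

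Oxidative phosphorylation is carried out by 5 assemblies in the inner mitochondrial membrane. Complexes I and II take electrons from NADH and succinate, complex III passes them from ubiquinol to cytochrome c, and complex IV hands them to oxygen, while complexes I, III and IV pump protons and complex V, the ATP synthase, lets the protons back to make ATP. Most subunits are encoded in the nucleus and some in mitochondrial DNA, and several complex IV subunits exist as a widely expressed form and a form restricted to heart, muscle or testis. Pluripotent cells are known for an active glycolysis beside respiration, and the nuclear subunit genes are commonly described as targets of the factors NRF1 and NRF2 (the ETS protein GABP).

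The deposited values are on a log2 scale, inferred from their range of 2.30 to 14.7, and array medians ran from 7.76 to 7.86. The pluripotency markers Pou5f1, Nanog, Sox2, Zfp42 and Esrrb were high in all groups, with a log2 summed level of 15.1 to 15.3 on every array. Within that sum Sox2 was called higher in EB than in ES (0.32), and Zfp42 and Sox2 were called lower in ATRA than in DMSO (-0.57 and -0.20). Cyp26a1 and Rarb, targets of retinoic acid, were higher in the ATRA than in the DMSO group by 1.76 ± 0.09 and 1.68 ± 0.09 (log2 difference ± SE, n = 3 per group). Visceral endoderm markers were higher in EB than in ES for 9 of 9 genes, with log2 summed levels of 13.01 to 13.04 in ES, 14.30 to 14.47 in EB, 14.59 to 14.77 in DMSO and 14.40 to 14.56 in ATRA, and fibroblast markers, as in feeder cells, were lower for 9 of 11, from 14.47 to 14.51 in ES to 13.71 to 13.75 in EB, 13.63 to 13.72 in DMSO and 13.46 to 13.51 in ATRA. No marker is at 0 on this scale, and the part of either cell type in the differences below was not tested. In these bulk samples fewer cells of a type and less RNA per cell cannot be told apart.

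Most subunit genes had bright, steady signals. The median of a member's mean over the 12 arrays was 11.70 log2 units, and the 12-array range was under 0.5 for 67 of the 79 and over 1 for 2, Ndufa4l2 and Cox7a1. The median range was 0.29 over the members and 0.42 over all genes. The median SD within a group was 0.06 for the members and 0.085 for all genes. Signal on these arrays depends on the probes as well as on the transcript, and levels of different genes are not ranked here.

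**Figure D1:**
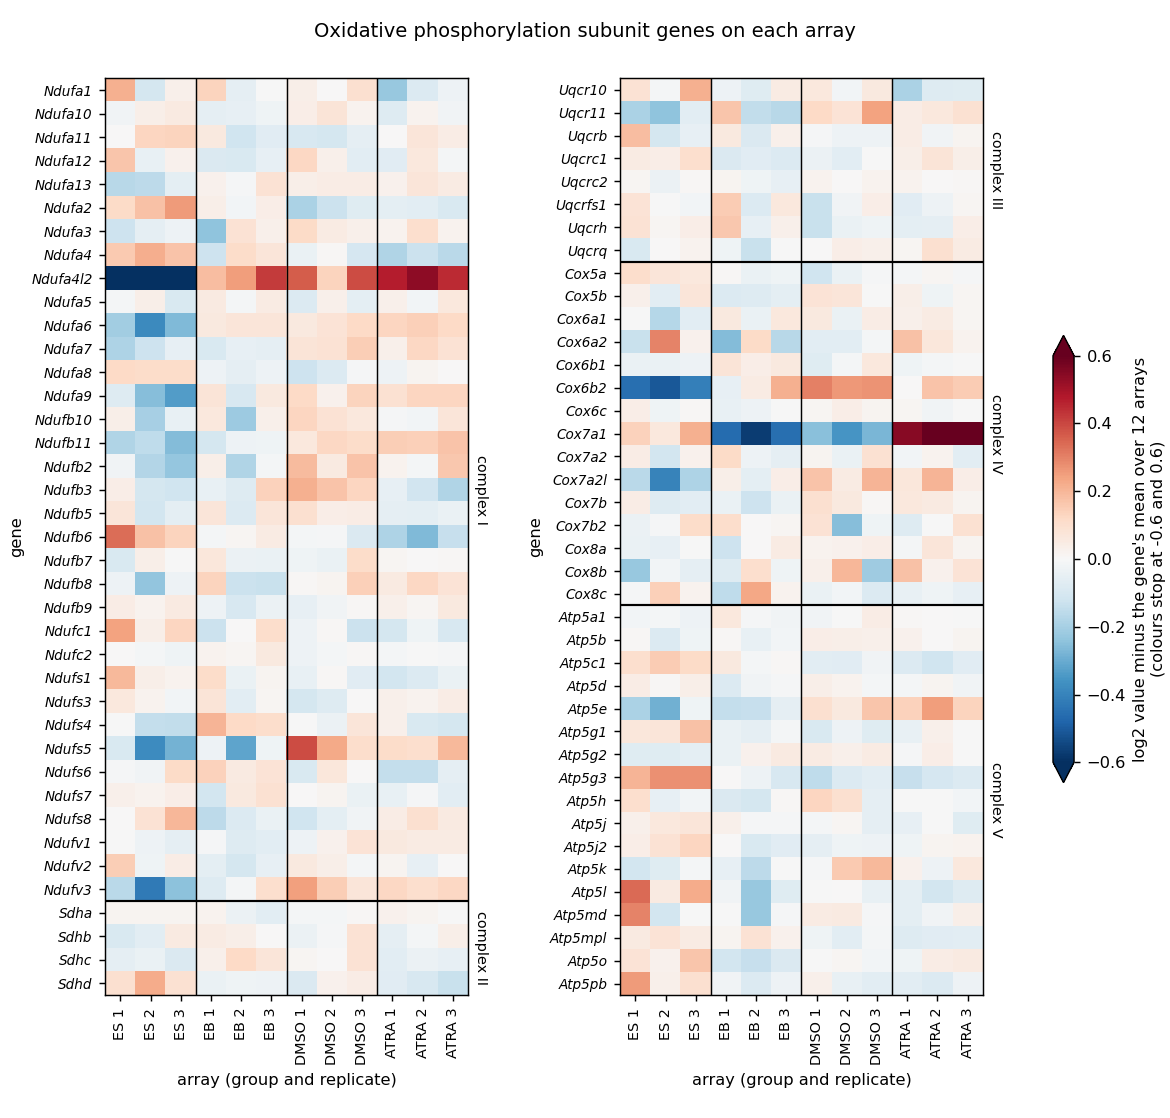
Each row is a subunit gene and each column an array; colour gives the log2 value minus that gene's mean over the 12 arrays, with lines between groups and complexes. Ndufa4l2 is low on the 3 ES arrays, Cox6b2 likewise to a lesser degree, and Cox7a1 is low in EB and DMSO and high in ATRA, while most other rows are pale.

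Against this steady background the largest changes lay in 3 genes for alternative subunit forms. Cox7a1 encodes the heart and muscle form of subunit VIIa and Cox7a2 its widely expressed counterpart, and Cox6b2 encodes the testis form of subunit VIb and Cox6b1 its counterpart. The promoter sequences of both pairs are shown because the members of each pair moved differently on the arrays. They are the 250 bases before the start site (RefSeq, assembly GRCm38.p6), at chr7:30183921-30184170 (plus strand) for Cox7a1, chr9:79759854-79760103 (minus strand) for Cox7a2, chr7:4753095-4753344 (minus strand) for Cox6b2 and chr7:30626115-30626364 (minus strand) for Cox6b1. The table gives 1 start per gene, and the one it gives for Cox7a2 lies inside the annotated gene, which extends further upstream. Capitals mark a CCAAT box (CCAAT, or ATTGG on the other strand), a GC box (GGGCGG) or an ETS match (CCGGAAG, or CTTCCGG on the other strand).
Cox7a1: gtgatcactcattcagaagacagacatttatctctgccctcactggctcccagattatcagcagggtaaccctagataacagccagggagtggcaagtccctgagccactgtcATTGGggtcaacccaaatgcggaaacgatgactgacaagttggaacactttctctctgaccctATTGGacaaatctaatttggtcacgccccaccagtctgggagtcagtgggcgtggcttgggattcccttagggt
Cox7a2: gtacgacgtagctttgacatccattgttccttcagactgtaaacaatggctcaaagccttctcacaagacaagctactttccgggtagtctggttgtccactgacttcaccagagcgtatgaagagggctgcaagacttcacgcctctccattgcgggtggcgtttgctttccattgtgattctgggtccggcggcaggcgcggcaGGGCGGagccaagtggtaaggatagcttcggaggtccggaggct
Cox6b2: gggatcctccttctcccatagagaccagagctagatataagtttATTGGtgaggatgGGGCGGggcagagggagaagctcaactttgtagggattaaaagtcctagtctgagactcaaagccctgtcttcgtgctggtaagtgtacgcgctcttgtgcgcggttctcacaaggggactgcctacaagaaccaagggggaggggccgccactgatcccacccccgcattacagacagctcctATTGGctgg
Cox6b1: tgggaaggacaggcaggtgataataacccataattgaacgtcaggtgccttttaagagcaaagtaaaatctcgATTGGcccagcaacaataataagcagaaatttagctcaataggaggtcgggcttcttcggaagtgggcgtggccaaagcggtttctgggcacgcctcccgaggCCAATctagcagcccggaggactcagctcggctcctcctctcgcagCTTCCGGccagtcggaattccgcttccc
The Cox7a1 stretch holds 4 CpG dinucleotides and the Cox7a2 stretch 14, and the Cox6b2 and Cox6b1 stretches hold 8 and 14. Cox7a1 has CCAAT matches at positions -137 and -74 from the start site and no GC box or ETS match here, Cox7a2 has a GC box at -44, Cox6b2 a GC box at -193 and CCAAT matches at -206 and -9, and Cox6b1 an ETS match at -28 and CCAAT matches at -177 and -74.

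Across the family, 66 of the 79 genes had a promoter in the RefSeq table and were searched on both strands. The stretch searched ran from 250 bases before the start site to 50 bases after it, further than the stretches printed above. The NRF1 core GCGCATGC was in 10 of the 66 (15.2%), against 3.05% of all 27025 genes in the table. The ETS letters CCGGAAG, as bound by GABP, were in 17 (25.8%) against 9.93%, and the YY1 letters AAGATGGCG in 7 (10.6%) against 1.64%. The CCAAT box was in 43.9% against 41.06%, the GC box in 40.9% against 38.20% and the low-oxygen factor core ACGTG in 25.8% against 21.78%. The nuclear receptor half-site AGGTCA was in 22.7% against 18.13%, and the retinoic acid response element made of that half-site repeated directly 5 bases apart was in 0 of the 66 and in 3 of all genes. These are letter matches in a window, not sites shown to be bound, and the shares were not tested against each other. The stretches also differ in base composition, with a median of 14 CpG dinucleotides in 250 bases for the members and 6 for all genes. The NRF1, ETS and YY1 letters each contain a CpG, and so do those of the GC box and the low-oxygen factor core. The part of base composition in these shares was not tested.

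Between ES cells and day 4 bodies, the comparison that asks how the machinery's transcripts fared as cells left the undifferentiated state, subunit genes changed in both directions and mostly by little. With limma and Benjamini-Hochberg adjustment over all genes, at an adjusted p under 0.05 (a call, from here on), 10 members rose and 13 fell, 29.1% of the 79, against 34.7% of all genes called (17.8% higher and 16.9% lower) and 48.8% of genes above the median signal. The median change was -0.02, against -0.0004 for all genes and 0.03 for genes above the median signal. The median size of change was 0.09 log2 units, against 0.12 for all genes. For 76 of the 79 the 95% interval of the change lay within 0.5 log2 units (1.41-fold) of 0, as it did for 83.5% of all genes. The 3 exceptions were Ndufa4l2, Cox7a1 and Cox6b2. Median centring of the arrays gave 10 higher and 4 lower members (71.4% of calls higher) in place of 43.5% higher, and quantile normalization 9 and 16 (36.0% higher), so the balance of the small changes hangs on scaling. With the 2 groups fitted alone it was 6 higher and 4 lower, without ES 2 and EB 2 together 8 higher and 7 lower, without EB 3 it was 5 higher, and without ES 3 it was 7 lower.

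**Figure D2:**
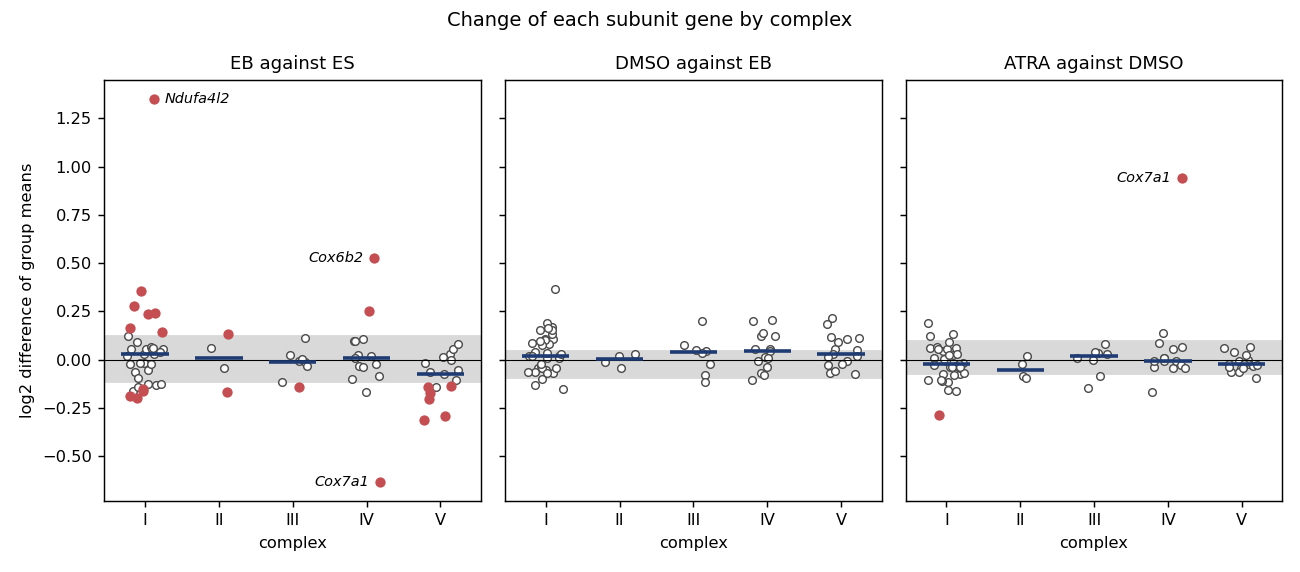
Each point is a subunit gene, placed by complex; the vertical axis is the log2 difference of group means (n = 3 per group) in 3 comparisons. Filled points are called (adjusted p under 0.05), the bar is the complex's median and the grey band holds the middle of all genes from the lower to the upper quartile. Called complex V genes all lie below 0 in EB against ES, and Cox7a1 stands alone above the others in ATRA against DMSO.

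In complex I, the entry point for electrons from NADH, 7 genes rose and 4 fell, and the median was 0.03. Ndufa4l2 and Ndufa4 are counted here by symbol alone. Ndufa4l2, a paralog of Ndufa4 best known as a gene induced in low oxygen, read 8.96, 8.74 and 8.90 in ES and 10.12, 10.18 and 10.35 in EB. The groups lay far apart, and the gene rose 2.55-fold (log2 difference 1.35 ± 0.08 SE, n = 3 per group, limma adjusted p = 8.33e-08). Ndufa4, whose product is now assigned to complex IV, read 12.28, 12.34 and 12.29 in ES and 12.00, 12.23 and 12.19 in EB. Its values did not overlap but it was not called, at -0.16 ± 0.06 with an adjusted p of 0.0541 in limma.

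Beside Ndufa4l2, 3 genes for accessory subunits of complex I rose by more than 0.2 log2 units and kept their call whichever single array was left out. Ndufa6 read 10.21, 10.04 and 10.16 in ES against 10.48, 10.49 and 10.50 in EB (0.35 ± 0.05, limma adjusted p = 9.02e-05). Ndufv3, on the NADH-oxidising arm, read 10.20, 9.94 and 10.12 against 10.29, 10.35 and 10.47 (0.28 ± 0.07, limma adjusted p = 0.00829). Ndufs4, whose loss causes a Leigh-like disease in mice, read 12.22, 12.08 and 12.07 against 12.43, 12.34 and 12.33 (0.24 ± 0.06, limma adjusted p = 0.00589). Ndufa9 (0.24), Ndufa13 (0.16) and Ndufb11 (0.14) were also called higher. With the 2 groups fitted alone these genes were not called. The call of Ndufa9, the only one among the members whose groups overlapped, was lost without EB 1, EB 3, ES 2 or ES 3, that of Ndufb11 without EB 2, EB 3 or ES 3, and that of Ndufa13 without EB 3.

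The 4 complex I genes that fell were Ndufa8, Ndufb6, Ndufs8 and Ndufa2, by 0.15, 0.20, 0.19 and 0.16 log2 units. Ndufs8 is a core subunit that carries iron-sulfur clusters, and read 11.89, 11.97 and 12.09 in ES against 11.73, 11.81 and 11.85 in EB. The other core subunits measured, Ndufs1, Ndufs3, Ndufs7, Ndufv1 and Ndufv2, were not called, with changes from -0.13 (Ndufv2) to -0.02 (Ndufs3). None of the 4 falls was called after median centring, with Ndufs8 nearest at an adjusted p of 0.0518 in limma. None was called with the 2 groups fitted alone. Calls were also lost without EB 1 or ES 1 for Ndufb6, without EB 1 or ES 3 for Ndufs8 and without EB 2 or ES 3 for Ndufa2.

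In complex II, Sdhc rose (12.20, 12.21 and 12.16 in ES, 12.28, 12.37 and 12.32 in EB; 0.14 ± 0.04) and Sdhd fell (11.30, 11.43 and 11.30 against 11.17, 11.18 and 11.18; -0.17 ± 0.05), with limma adjusted p-values of 0.0287 and 0.0216. These encode the 2 membrane anchors of succinate dehydrogenase, while the flavin subunit Sdha (-0.04) and the iron-sulfur subunit Sdhb (0.06) were not called. In complex III, Uqcrc1, a large core protein, fell from 12.68, 12.67 and 12.73 to 12.54, 12.56 and 12.55 (-0.14 ± 0.04, limma adjusted p = 0.0149), and the Rieske iron-sulfur protein Uqcrfs1 (0.02) and 6 other genes were not called. The calls of Sdhc were lost without EB 2, EB 3 or ES 3, of Sdhd without EB 1, EB 3 or ES 2, and of Uqcrc1 without ES 3. Sdhd and Uqcrc1 were not called after median centring, nor Sdhc after quantile normalization. With the 2 groups fitted alone, Sdhc, Sdhd and Uqcrc1 all lost their calls (limma adjusted p = 0.117, 0.0728 and 0.0861).

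In complex IV, the oxygen-consuming enzyme, 2 genes rose and 1 fell. Cox7a1 read 11.33, 11.26 and 11.41 in ES and 10.73, 10.63 and 10.74 in EB. Every EB array lay below every ES array, and the gene fell by 0.63 log2 units (1.55-fold lower, SE 0.07, limma adjusted p = 7.88e-06). Its counterpart Cox7a2 read 12.29, 12.13 and 12.27 against 12.36, 12.21 and 12.19, a difference of 0.02 with a 95% interval of -0.11 to 0.16.

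Cox6b2 read 10.19, 10.14 and 10.24 in ES against 10.60, 10.69 and 10.86 in EB. It rose 1.44-fold (0.53 ± 0.07, limma adjusted p = 4.89e-05) with no overlap. Its counterpart Cox6b1 read 12.64, 12.64 and 12.65 against 12.76, 12.72 and 12.74, which was not called (0.10, 95% interval 0.0011 to 0.19, limma adjusted p = 0.115). Cox7a2l, which helps respiratory complexes associate into supercomplexes, rose by 0.25 ± 0.07 (limma adjusted p = 0.0153). Its call was lost without EB 3 or ES 2, and the probe set that lies among those of its own chromosome gave 0.23 with a limma adjusted p of 0.0562.

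Cardiac and skeletal muscle markers, Myh6, Myh7, Tnnt2, Tnni3, Actc1, Ckm, Myl2 and Myl7, were called lower for 2 of 8 and higher for 0, with log2 summed levels of 11.23 to 11.33 in ES and 11.02 to 11.15 in EB. Testis and germ cell markers were called lower for 1 of 5 (Dazl) and higher for 0, with summed levels of 10.67 to 10.90 in ES and 10.28 to 10.32 in EB. Cox6a2 (-0.17), Cox8b (0.10), Cox8c (-0.02) and Cox7b2 (0.02), further muscle or testis forms, were not called in this or any other comparison; their 12-array means were 7.90, 6.97, 7.94 and 5.66. The part of these tissues' cells in the Cox7a1 and Cox6b2 changes was not tested.

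Setting Ndufa4l2, Cox6a2, Cox6b2, Cox7a1, Cox7b2, Cox8b and Cox8c apart, a grouping made after the values were seen, left 72 members. Of these, 8 rose and 12 fell (27.8%, against 34.7% of all genes called and 48.8% of genes above the median signal). Their changes ran from -0.31 to 0.35, and for all 72 the 95% interval lay within 0.5 log2 units of 0. That range and that count follow from the grouping, which set apart the 3 members outside the limit, and are no separate evidence of steadiness.

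**Figure D3:**
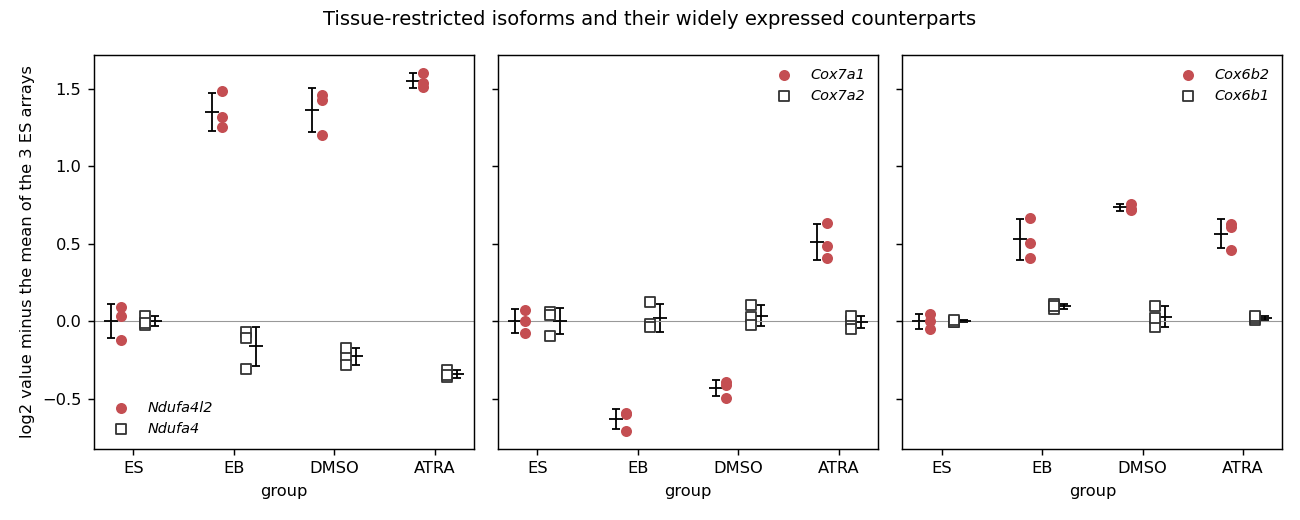
Points are arrays of each group, given as the log2 value minus the mean of the gene's 3 ES arrays; horizontal marks and whiskers are group means and SD (n = 3). Ndufa4l2, Cox7a1 and Cox6b2 (filled circles) move by more than 0.5 log2 units from ES to EB, while the means of Ndufa4, Cox7a2 and Cox6b1 (open squares) differ by -0.16, 0.02 and 0.10.

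In complex V 6 of 17 genes were called (35.3%, against the 34.7% of all genes and 48.8% of genes above the median signal given above). All 6 fell, where 16.9% of all genes were called lower. Changes were below 0 for 13 of the 17 and for 9996 of all 19938 genes, and the complex V median was -0.07. Atp5g3 read 12.91, 12.98 and 12.98 in ES and 12.71, 12.68 and 12.61 in EB (-0.29 ± 0.05, limma adjusted p = 3.04e-04). It is 1 of 3 genes for the same c-ring subunit through which protons pass; Atp5g1 also fell (-0.14), and Atp5g2 was not called (0.08). Atp5l, a membrane subunit linked to dimers of the enzyme, read 11.01, 10.72 and 10.89 against 10.64, 10.44 and 10.59 (-0.31 ± 0.07, limma adjusted p = 0.00398).

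Atp5o, the stalk protein OSCP, read 11.99, 11.94 and 12.08 against 11.80, 11.77 and 11.82 (-0.21 ± 0.05, limma adjusted p = 0.00407). Atp5j2 (-0.14) and Atp5pb (-0.17), a membrane subunit and the peripheral stalk's subunit b, completed the list of falls. Atp5l and Atp5pb are read at probe sets among those of another chromosome. Their further probe sets gave -0.29 to -0.25 for Atp5l and -0.18 for Atp5pb. The genes for the alpha to epsilon subunits were not called. The alpha subunit Atp5a1 differed by 0.03 and the beta subunit Atp5b by 0.01. The gamma, delta and epsilon subunits Atp5c1, Atp5d and Atp5e differed by -0.10, -0.06 and 0.05. Median centring left 3 falls in complex V and quantile normalization 5. With the 2 groups fitted alone, Atp5g1, Atp5j2 and Atp5pb were not called. Calls were lost without EB 1, EB 2 or ES 3 for Atp5g1, without EB 2, EB 3, ES 2 or ES 3 for Atp5j2, and without EB 1, EB 2, EB 3, ES 1 or ES 3 for Atp5pb; those of Atp5g3, Atp5l and Atp5o were kept throughout.

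Of 9 genes for subunits or their partners outside the symbol rule, 2 rose: Higd1a, a small low-oxygen-induced partner of complex IV, by 0.40 ± 0.09 and Atpif1, the inhibitor of the ATP synthase, by 0.18 ± 0.05. Cox4i1 (-0.08), its low-oxygen form Cox4i2 (-0.12), Cyc1 (0.01), Cycs (-0.15) and Ndufab1 (-0.03) were not called. Of subunits encoded in mitochondrial DNA, 2 had probe sets of their own: ND3 of complex I fell by 0.23 on the log2 scale (SE 0.07, limma adjusted p = 0.0141) and COX2 of complex IV was not called (-0.04).

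In the genes around the respiratory chain, calls ran in both directions over the same step. Of 47 assembly factors, 5 rose and 10 fell (median -0.01), with Uqcc2, needed to build complex III, lower by 0.48 ± 0.05 and Nubpl, which delivers iron-sulfur clusters to complex I, higher by 0.52 ± 0.11. Of 77 mitochondrial ribosome proteins, 4 rose and 22 fell (median -0.08). Of 17 tricarboxylic acid cycle enzymes, 2 rose and 4 fell: Idh2 was higher by 0.39 and Pdhb by 0.39, and Mdh2 and Cs were lower by 0.37 and 0.25. These shares stand beside 17.8% of all genes called higher and 16.9% called lower.

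A list of glycolysis genes, switches that steer pyruvate and the low-oxygen genes Egln3 and Bnip3 had the largest median among these lists, 0.28, with 17 of 23 higher and 1 lower. Over all genes, 17.8% were called higher and 16.9% lower. Of 9969 genes above the median signal, 2844 were called higher and 2024 lower. The list's 2 largest differences were in Egln3 and Bnip3, which are not enzymes of glycolysis. Egln3, an oxygen-sensing hydroxylase that is itself induced in low oxygen, read 10.66, 10.64 and 10.54 in ES and 12.54, 12.59 and 12.59 in EB, 3.90-fold higher. Bnip3, a mitophagy receptor, was higher by 1.43 ± 0.07 and Ldhb, a lactate dehydrogenase subunit, by 1.22 ± 0.05. Pdk1, the kinase that shuts pyruvate dehydrogenase, was higher by 0.49 ± 0.05.

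Among 13 regulators of mitochondrial biogenesis only Ppargc1a, the coactivator PGC-1alpha, was called (7.69%, against 34.7% of all genes). It read 8.93, 8.76 and 8.99 in ES and 6.92, 7.18 and 6.98 in EB, 3.64-fold lower (-1.87 ± 0.13, limma adjusted p = 2.17e-07). Nrf1 (-0.14), Gabpa (0.10) and Tfam (0.14), factors that act on nuclear subunit genes or on mitochondrial DNA, were not called. Among 10 mitochondrial carriers, uncoupling proteins and outer-membrane channels, the adenine nucleotide translocases Slc25a31 and Slc25a4 fell by 1.53 and 0.70 and the pyruvate carrier subunit Mpc1 by 0.31, and none rose. That is 30.0% of the list called, near the 34.7% of all genes.

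**Figure D4:**
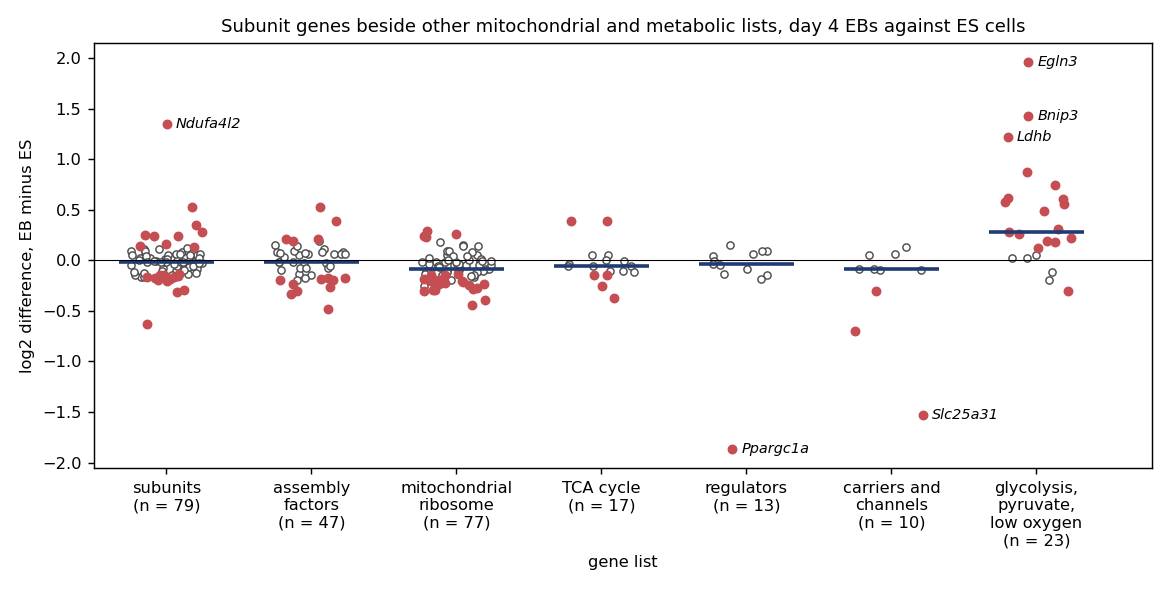
Each point is a gene; the vertical axis is the log2 difference of EB minus ES means (n = 3 per group) and columns are gene lists, with the number of genes measured under each name. Filled points are called and bars are medians. The subunit genes lie close to 0 apart from Ndufa4l2, Cox7a1 and Cox6b2, while 17 of the 23 genes of the list of glycolysis, pyruvate and low-oxygen genes are called higher. Over all genes, 17.8% are called higher.

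DMSO-treated against untreated bodies called no subunit gene: limma gave 0 of 79, against 0.747% of all genes called (0.537% higher and 0.211% lower) and 1.16% of genes above the median signal. An unadjusted p under 0.05 in limma was found for 15 members (19.0%), 3256 of all genes (16.3%) and 20.5% of genes above the median signal. The groups may differ in time in culture as well as in solvent. Endoderm markers were called higher for 4 of 9 and lower for 0, and their part in the subunit values was not tested. The median change of the members was 0.03 and the changes ran from -0.15 to 0.37. The median was -0.02 over all genes and 0.0005 over genes above the median signal. Changes were above 0 for 50 of the 79 members and for 8077 of all 19938 genes. Of the 79 intervals, 78 lay within 0.5 log2 units of 0, as did those of 97.4% of all genes and 98.8% of genes above the median signal. Ndufs5, a small complex I subunit, had the largest, with 8.72, 8.43 and 8.72 in EB and 9.14, 8.97 and 8.85 in DMSO. The groups did not overlap, yet the change of 0.37 (95% interval 0.15 to 0.58) had an adjusted p of 0.102 in limma. Its probe set may also read the transcribed copy Ndufs5-ps, so the source of its signal is uncertain. Cox7a1 (0.20) and Cox6b2 (0.21) were not called either. An intensity trend with a robust prior called 3 members higher and genes above the median signal fitted alone called 4, with 0 lower in both. Over all genes the 149 calls fell to 0 without DMSO 1 or EB 1, to 2 without DMSO 3, to 33 without EB 2 and to 48 without EB 3.

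ATRA against DMSO, the comparison that isolates 12 h of retinoic acid, called 2 subunit genes of 79 (2.53%), 1 in each direction, against 13.3% of all genes (6.26% higher, 7.05% lower) and 19.0% of genes above the median signal. The median change was -0.02, against 0.01 for all genes and -0.03 for genes above the median signal. The median size of change was 0.04, against 0.09 for all genes. All but 1 of the 79 intervals lay within 0.5 log2 units of 0, as did those of 93.1% of all genes. The exception among the members was Cox7a1. Cell-state markers moved over the same step: pluripotency markers were called lower for 2 of 5 and higher for 0, endoderm markers lower for 5 of 9 and higher for 1, and fibroblast markers lower for 4 of 11 and higher for 2. Their part in the subunit values was not tested.

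Cox7a1 read 10.94, 10.84 and 10.92 in DMSO and 11.74, 11.97 and 11.82 in ATRA. The groups lay well apart, and Cox7a1 rose 1.92-fold (0.94 ± 0.07, 95% interval 0.80 to 1.08, limma adjusted p = 1.44e-06). The ATRA arrays also lay above all 3 ES arrays, a difference that was not tested. Cox7a2 read 12.26, 12.20 and 12.34 in DMSO and 12.23, 12.26 and 12.18 in ATRA, a change of -0.04 with a 95% interval of -0.17 to 0.09.

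Muscle markers were called higher for 1 of 8 (Myl7, 0.60) and lower for 1 of 8 (Tnnt2), with log2 summed levels of 10.99 to 11.06 in DMSO and 11.14 to 11.20 in ATRA. Their part in the Cox7a1 change was not tested. The muscle forms Cox6a2 and Cox8b differed by 0.14 and 0.09 between ATRA and DMSO and were not called. Among the 13 biogenesis regulators Esrra rose (0.23 ± 0.06) and Myc and Pprc1 fell (-0.27 and -0.19), while Ppargc1a was not called (0.27 ± 0.13, limma adjusted p = 0.211). The calls are 23.1% of that list, against 13.3% of all genes.

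Ndufb3, a membrane-arm subunit of complex I, read 9.41, 9.36 and 9.32 in DMSO and 9.14, 9.08 and 9.01 in ATRA. The values did not overlap, and the gene fell by 0.29 on the log2 scale (SE 0.07, limma adjusted p = 0.0119). The call was lost without ATRA 3 (-0.25) or DMSO 1 (-0.27). Ndufa4l2 (0.19) and Cox6b2 (-0.17), both changed between ES and EB, were not called. In complex II the largest differences were -0.09 (Sdhd) and -0.08 (Sdhc), in complex III -0.15 (Uqcr10) and -0.08 (Uqcr11), and in complex V -0.09 (Atp5k) and 0.07 (Atp5e), none of them called. Leaving out the DMSO 1 or ATRA 3 array thus left Cox7a1 as the one member called.

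Among the carriers, Mpc1 rose from 11.11, 11.22 and 11.23 in DMSO to 11.73, 11.64 and 11.64 in ATRA (0.49 ± 0.06, limma adjusted p = 1.28e-04). Of 77 mitochondrial ribosome proteins 0 rose and 3 fell, Mrpl22 among them (-0.32 ± 0.06). Of 47 assembly factors, Coa7 rose (0.27) and Uqcc3 fell (-0.23). Of the 23 genes of the glycolysis, pyruvate and low-oxygen list 1 rose and 6 fell, among them Egln3 (-0.34 ± 0.05) and Pdk1 (-0.22 ± 0.05), and Pdha1, the alpha subunit of pyruvate dehydrogenase, fell too (-0.23 ± 0.04). These counts stand beside 6.26% of all genes called higher and 7.05% called lower.

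ATRA-treated against untreated bodies called 4 members higher and 3 lower, against 18.4% of all genes (7.79% higher, 10.6% lower) and 28.7% of genes above the median signal. This comparison shares arrays with each of those above. The solvent, and perhaps time in culture, adds to its difference. Cox7a1 was 2.21-fold higher (1.14 ± 0.07, limma adjusted p = 2.57e-07). Ndufb11, a membrane-arm subunit of complex I, read 11.67, 11.74 and 11.75 in EB, 11.84, 11.90 and 11.89 in DMSO and 11.92, 11.92 and 11.94 in ATRA (0.21 ± 0.05 for ATRA against EB, limma adjusted p = 0.00649). Atp5e, the epsilon subunit of complex V, read 10.09, 10.10 and 10.18 in EB, 10.34, 10.30 and 10.40 in DMSO and 10.38, 10.49 and 10.37 in ATRA (0.29 ± 0.07, limma adjusted p = 0.00972). For both genes the DMSO arrays already lay above the EB arrays, though neither was called in DMSO against EB (0.15 and 0.22).

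Uqcrc1 was the fourth gene called higher (0.13), and Ndufb6 (-0.21), Ndufs6 (-0.20) and Ndufs4 (-0.20) were called lower. In EB against ES, Uqcrc1 and Ndufs4 were called in the opposite direction. Both comparisons use the same EB arrays, so these are not independent changes back. Ndufb6 read 12.69, 12.71 and 12.75 in EB, 12.69, 12.69 and 12.61 in DMSO and 12.52, 12.43 and 12.56 in ATRA. Every ATRA array lay below every EB and DMSO array. Each of these 4 calls was lost without at least 1 array: Uqcrc1 without any of the 6, Ndufs4 without any but ATRA 1, Ndufs6 without ATRA 1, ATRA 2, EB 1 or EB 3, and Ndufb6 without ATRA 1, ATRA 2 or EB 3. Atp5e lost its call without ATRA 2, and Ndufb11 (0.15, limma adjusted p = 0.0578) when read at the probe set on its own chromosome. After median centring the 3 falls were not called. Counts were 2 higher and 0 lower without ATRA 2, 0 lower without EB 3 and 1 lower without ATRA 1.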

How the data were processed

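Total RNA was labelled with the Ambion WT Expression kit and hybridised to Affymetrix arrays, per the labels' protocols. The authors deposited 1 table of log2 values for 35556 probe sets; the log base is inferred from the values, and background correction, normalization and summarization are steps not given in the sources used here. High signals can be compressed, and a change of total RNA per cell would be hidden. The platform annotation gave 1 symbol for 21789 probe sets, several for 1621 and none for 12146, and 21698 were found in RefSeq (GRCm38.p6). Each gene was read at 1 probe set, the single-symbol set of highest mean over the arrays. For 16 members with several, their group differences were compared, and 0 were called in opposite directions. Probe set numbers run in chromosome order, and 9 members (Atp5g2, Atp5l, Atp5md, Atp5pb, Cox6c, Cox7a2l, Cox7b, Ndufa11 and Ndufb11) are read at a probe set among those of another chromosome, so that near-identical copies may contribute to them.

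limma 3.58.1 in R 4.3.3 fitted a mean per group over all 12 arrays (8 residual and 3.93 prior degrees of freedom) with no low-value filter, and p-values are two-sided and adjusted over 19938 genes. They reflect only how far replicate samples, biological ones by their labels, lie apart within groups, and 3 arrays a group limit the precision. That spread is shared by all 4 groups and drawn toward a value common to all genes. An SE or p-value for 2 groups therefore also rests on the arrays of the others. The code was tested on simulated data. Members and lists were chosen with earlier results of these data known. Per comparison and complex the text names up to 4 called members in each direction by adjusted p, otherwise the 2 largest changes, any alternative subunit form, up to 3 called genes of other lists and check genes; further names were added after their values were seen. Alternatives were other scalings, probe sets, thresholds, filters and priors, array weights, the groups compared alone, a replicate block and leaving out arrays. The probe set on the gene's chromosome and the fit without ES 2 and EB 2 were chosen after seeing the data. Same-numbered samples did not deviate together in every pair, so the numbers were not used as pairs.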

Additional observations from a re-analysis of the deposited data

How the results depend on the processing

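Ndufa4l2 and Cox6b2 in EB against ES and Cox7a1 in the 3 comparisons that called it kept direction and call under every alternative run. Of the 23 members called in EB against ES, 10 kept their call whichever array was left out and 13 lost it at least once; for ATRA against DMSO it was 1 and 1, and for ATRA against EB 2 and 5. The other counts follow, with the cause not tested. In EB against ES (10 higher, 13 lower) the members called were 6 higher and 4 lower with the groups fitted alone, 5 and 4 at an adjusted p under 0.01, 4 lower after median centring and 7 lower without ES 2 and EB 2, and ranged over 5 to 10 higher and 7 to 12 lower when single arrays were left out. In DMSO against EB, members called higher were 4 among genes above the median signal and 3 with an intensity trend and robust prior. There the 149 genes called became 476 over all probe sets, 761 above the median signal, 626 with the trend, 25 with the groups alone, 253 after quantile normalization, 5 at an adjusted p under 0.01, and 0 to 128 without single arrays; the members' median of 0.0273 became 0.0472 after median centring and 0.0116 after quantile normalization. In ATRA against DMSO, array weights gave 2 members higher, 2 lower and 4311 genes, 2 were lower above the median signal and with the trend, 0 were lower and 1605 genes called at an adjusted p under 0.01, and 0 to 1 lower without single arrays; the members' median was -0.0032 after quantile normalization and -0.0189 to -0.0055 without single arrays. In ATRA against EB the members were 8 higher and 7 lower above the median signal, 10 and 7 with the trend, 0 lower after median centring, and 0 lower with 2126 genes at an adjusted p under 0.01; without single arrays they were 2 to 4 higher and 0 to 2 lower. The median there was 0.0446 after median centring and 0.0177 to 0.0339 without single arrays. Same-numbered samples correlated in their deviations from group means at -0.13 to 0.51. The highest value was between an ES and an EB sample, and others of those groups went down to -0.07. Differently numbered samples are not set beside them here, so these values cannot tell whether the numbers pair samples. With a replicate block, 6848 genes were called in EB against ES and 62 in DMSO against EB. For ATRA against DMSO it was 2553 and for ATRA against EB 3514. The members called were, in that order, 10 higher and 14 lower, 0, 1 and 1, and 5 and 4. Array weights rested on ES 3 (weight 7.25). The number of arrays, 3 a group, limits how small a change the test can call.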
